A study of Arabidopsis thaliana with 6 samples.

Results

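YUC1 to YUC10 of Arabidopsis thaliana are 10 members of the YUCCA family of auxin synthesis genes, and they were chosen by their TAIR10.1 loci out of 37899 annotated nuclear genes. The reads of 6 ChIP-seq libraries were counted over each gene span and over the 1 kb on either side of it. The libraries came from 14-day-old seedlings. The tested plants were brm mutants, which carry brm-1, a T-DNA null allele of BRAHMA, and the plants they were set against were wild type (wt) Col, the parent accession. Each genotype gave 2 libraries immunoprecipitated with an antibody against trimethylated lysine 27 of histone H3 (H3K27me3), from independent biological samples per the study's methods, and 1 input library of chromatin that was not immunoprecipitated. Seedlings of both genotypes were grown under long days on sucrose-containing medium, and a single mutant allele stands for the loss of BRM. Seedlings mix many cell types, so more marked cells and more mark per cell cannot be told apart.

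YUCCA proteins are flavin-containing monooxygenases that convert indole-3-pyruvate to indole-3-acetic acid, the main natural auxin, in the last and rate-limiting step of the main synthesis route. The genes are expressed in small and distinct groups of cells, and many of them are silent in most of the plant. H3K27me3 is placed by Polycomb Repressive Complex 2 on genes that are held silent, and BRM is the ATPase of a SWI/SNF chromatin remodeling complex that works against Polycomb at many plant genes. The comparison asked whether the mark on the YUC genes differed between plants without and with BRM.

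The mark covered 8 of the 10 YUC genes in both genotypes, and the H3K27me3 regions called in both replicates joined across the upstream side of YUC9 and YUC8 in brm, where wt had gaps. The bases from -600 to -301, counted from the annotated start site of these genes, are shown because they lie inside such a region in brm and outside it in wt. The same stretch of YUC3, a gene whose span bore no mark, is shown beside them. It too lies inside a brm region, and the wt region there ends at -551. All 3 are from the TAIR10.1 genome, plus strand, at chr1:1103893-1104192 for YUC9, chr4:14191969-14192268 for YUC8 and chr1:1278751-1279050 for YUC3. Capitals mark matches to CACGTG (the G-box, the core element bound by basic helix-loop-helix factors such as the PIF proteins), to GAGAGAGA or to AAACCCTA (the telobox), searched on both strands.
YUC9: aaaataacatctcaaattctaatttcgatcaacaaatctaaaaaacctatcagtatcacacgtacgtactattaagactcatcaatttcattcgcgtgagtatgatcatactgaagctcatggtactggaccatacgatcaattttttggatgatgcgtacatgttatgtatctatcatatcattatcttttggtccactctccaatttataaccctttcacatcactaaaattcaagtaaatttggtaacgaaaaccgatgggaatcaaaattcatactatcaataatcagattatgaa
YUC8: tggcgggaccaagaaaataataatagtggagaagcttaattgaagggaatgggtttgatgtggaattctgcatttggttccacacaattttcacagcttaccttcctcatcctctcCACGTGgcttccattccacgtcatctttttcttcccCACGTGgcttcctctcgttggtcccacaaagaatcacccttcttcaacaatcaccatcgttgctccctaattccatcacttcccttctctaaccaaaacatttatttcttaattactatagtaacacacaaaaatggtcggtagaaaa
YUC3: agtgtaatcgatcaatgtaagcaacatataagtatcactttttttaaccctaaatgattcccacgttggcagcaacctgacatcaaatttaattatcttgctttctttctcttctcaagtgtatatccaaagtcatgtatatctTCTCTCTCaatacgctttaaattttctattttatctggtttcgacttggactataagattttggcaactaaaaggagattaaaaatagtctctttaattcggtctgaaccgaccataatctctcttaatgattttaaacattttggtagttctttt

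The YUC8 stretch held 2 G-boxes, which begin at -484 and -448 from the start site, and the YUC9 stretch held none of the searched letters. Over the full 1 kb upstream, CACGTG occurred at 2 of the 10 YUC genes (YUC8 and YUC10) and in 14.8% of the 27443 upstream windows of protein-coding genes. GAGAGAGA occurred upstream of 2 YUC genes (YUC3 and YUC4), against 14.8% of all windows, and AAACCCTA upstream of 0, against 12.4%. Such matches describe the sequence and are not binding sites.

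The H3K27me3 libraries held 9593473 and 8408612 reads in brm and 8563827 and 9051298 in wt, and the inputs 5676681 reads in brm and 6342835 in wt. Only 28.3% and 38.2% of the reads were distinct in position and strand in the brm H3K27me3 libraries, against 27.9% and 23.4% in wt, while the inputs held 80.03% in brm and 68.9% in wt. Values are given as reads per 1000000 nuclear reads of the library (RPM), and levels of different genes are compared only as RPM per kb of gene. Regions present in both replicates (common regions) covered 18.6% of the genome in brm and 16.5% in wt, and a gene was called marked where they covered at least 50% of its span, which held for 8040 genes (21.2%) in brm and 7520 (19.8%) in wt. Among loci with a known state, common regions covered all of AG in both genotypes and 100% of FLC in brm, against 96.4% in wt, and none of ACT7 or TUB2. By reads, brm lay below wt at FLC (456.8 and 463.6 RPM in brm, against 636.4 and 542.6 in wt). AG showed the same order (410.0 and 429.0 in brm, against 484.4 and 502.1 in wt). Neither was called changed (edgeR quasi-likelihood test, Benjamini-Hochberg adjusted p = 0.504 for FLC and 0.707 for AG). This arrangement was found in 20.2% of all genes tested. It also held at ACT7, while TUB2 overlapped, and both lay below their inputs. The tissue of origin could not be checked from these reads, since these libraries hold no RNA. The study also measured RNA of both genotypes on arrays, which were not used here.

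The marked genes were YUC1, YUC2, YUC4, YUC5, YUC6, YUC8, YUC9 and YUC10, and YUC3 and YUC7 had 0% of their spans in common regions in either genotype. Of all protein-coding genes, 23.2% were marked in brm and 21.9% in wt, and no test was made of the YUC share against them. Against the input of the same genotype, H3K27me3 reads were higher over each of the 8 marked genes in brm, where 17.1% of the genes tested were above input, and in wt, where 17.2% were (edgeR quasi-likelihood test, highest Benjamini-Hochberg adjusted p = 0.00964). The regions that define marked genes were themselves called by excess over these inputs, so this result is not separate evidence of the mark. The log2 ratio to input lay between 1.30, for YUC9 in brm, and 3.09, for YUC2 in wt. Its size depends on the scaling: with TMM over genes it lay between 3.36, for YUC9 in brm, and 5.06, for YUC2 in brm. YUC3 and YUC7 fell below input, as did 47.5% of genes in brm and 45.2% in wt.

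**Figure D1:**
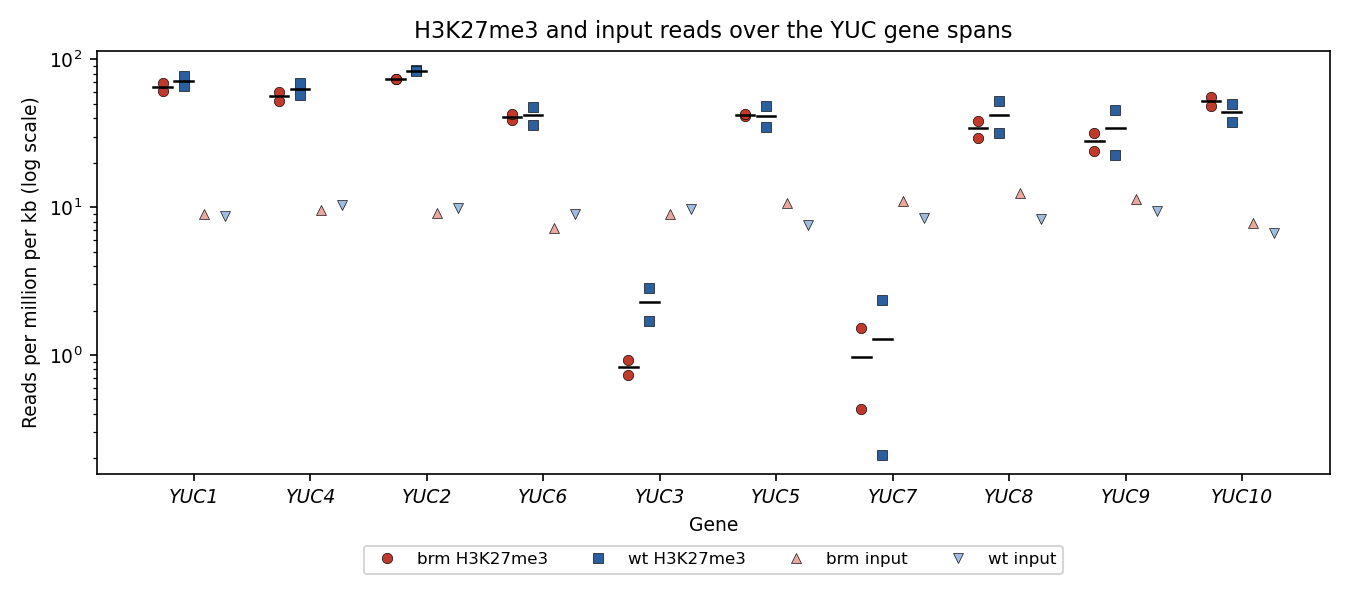
RPM per kb (log scale) over the span of each YUC gene, with brm H3K27me3, wt H3K27me3, brm input and wt input from left to right. Points are single libraries and bars are means of 2 libraries. The 8 marked genes sit above the inputs in all 4 H3K27me3 libraries, and YUC3 and YUC7 sit below them.

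Per kb, the mark was highest on YUC2 in both genotypes, at 73.9 ± 0.00862 RPM per kb in brm and 84.0 ± 1.33 in wt (SD, n = 2 each here and for all values below). In brm the order below YUC2 was YUC1 (65.2), YUC4 (56.3), YUC10 (52.1), YUC5 (42.1), YUC6 (41.0), YUC8 (34.1) and YUC9 (28.1), with YUC7 (0.973) and YUC3 (0.827) far below. Libraries of neighbours overlapped between YUC4 and YUC10, YUC5 and YUC6, YUC8 and YUC9, and YUC7 and YUC3, so those pairs are not ordered beyond their spread. In wt the order was YUC1 (71.5), YUC4 (63.5), YUC10 (43.8), YUC6 (42.2), YUC8 (42.1), YUC5 (41.7) and YUC9 (34.2), then YUC3 (2.27) and YUC7 (1.28). There YUC1 overlapped YUC4, and the genes between YUC10 and YUC9 each overlapped the next, as did YUC3 and YUC7.

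None of the 10 YUC genes was called changed in H3K27me3 over its span in brm. Across all 30906 genes tested, 0.0777% were higher and 0.0971% lower in brm at a false discovery rate of 0.05, so 0 of 10 in either direction is no different from the background. No YUC gene had an unadjusted p below 0.05 either, against 7.74% of all genes tested. The log2 fold change (brm over wt) was below 0 for 8 of the 10, with a median of -0.18, where all genes tested had -0.05 and genes marked in either genotype -0.06. Both brm libraries lay below both wt libraries for 2 YUC genes (YUC2 and YUC3), an arrangement found in 20.2% of all genes, and above them for 0, against 17.4% of all genes.

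YUC1 (AT4G32540, chr4:15700829-15703000, plus strand) and YUC4 (AT5G11320, chr5:3611247-3613640, minus strand) act together in the formation of flowers, leaf veins and embryos. YUC1 had 133.5 and 149.7 RPM over its span in brm, against 143.2 and 167.5 in wt, and inputs of 19.6 in brm and 18.9 in wt. The groups overlapped, with a log2 fold change of -0.13 (SE 0.16, adjusted p = 0.914). YUC4 had 143.3 and 126.2 RPM in brm, against 137.6 and 166.6 in wt, which also overlapped (log2 fold change -0.17, SE 0.17, adjusted p = 0.872).

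The 2 genes carried the mark in different shapes. The common region over YUC1 was chr4:15700801-15705400 in both genotypes, so that it began at -28 from the start site and ran past the 3′ end of the gene. The 1 kb upstream of YUC1 held 5.70 ± 0.687 RPM in brm and 6.83 ± 4.87 in wt, near the inputs of 4.05 and 5.20, while the 1 kb downstream held 73.3 ± 2.06 in brm and 81.4 ± 10.4 in wt. The highest 200 bp window lay from 2400 to 2600 bases after the start site, beyond the 2172 bases of the gene, at 132.2 RPM per kb in brm and 136.0 in wt. Over YUC4 the mark reached further upstream: the region was 6200 bp long in brm and 5600 bp in wt, and the 1 kb upstream held 59.4 ± 0.970 RPM in brm and 52.6 ± 6.48 in wt.

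YUC2 (AT4G13260, chr4:7721487-7724070, minus strand) and YUC6 (AT5G25620, chr5:8934941-8938768, minus strand) act together in stamens. YUC2 had 191.0 RPM over its span in both brm libraries, against 219.4 and 214.6 in wt. The groups did not overlap, but the difference did not pass the test (log2 fold change -0.18, SE 0.15, adjusted p = 0.826). The whole region over YUC2, which is 9600 bp long and also holds the small loci AT4G06045, AT4G06050 and AT4G06055, had 413.3 and 398.2 RPM in brm, against 462.8 and 456.2 in wt (log2 fold change -0.18, SE 0.08, adjusted p = 0.265). YUC6 had 149.9 and 164.4 RPM over its span in brm, against 139.0 and 183.8 in wt, so that the brm values lay between the wt ones (log2 fold change -0.04, SE 0.17, adjusted p = 0.986). In YUC6, between 77.7% and 84.6% of the span's H3K27me3 reads lay in the 5′ part of the gene (the first 50% of its length), while the inputs had 48.7% in brm and 49.5% in wt.

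YUC3, YUC5, YUC7, YUC8 and YUC9 form the group that acts together in roots, and YUC8 and YUC9 are also switched on by shade and warmth. YUC5 (AT5G43890, chr5:17648576-17650375, minus strand) had 74.6 and 77.1 RPM over its span in brm, against 62.9 and 87.1 in wt (log2 fold change 0.02, SE 0.20, adjusted p = 0.995). YUC8 (AT4G28720, chr4:14192569-14194302, plus strand, a single annotated exon) had 51.4 and 67.0 RPM in brm, against 55.3 and 90.5 in wt (log2 fold change -0.30, SE 0.23, adjusted p = 0.821). With the input as offset, the same test put YUC8 at -0.89 (adjusted p = 0.05004), just short of the threshold. Its inputs were 21.7 RPM in brm and 14.3 in wt. YUC9 (AT1G04180, chr1:1104493-1106241, plus strand) had 56.0 and 42.3 RPM in brm, against 39.6 and 79.9 in wt (log2 fold change -0.28, SE 0.27, adjusted p = 0.873). For each of these genes the wt libraries lay further apart than the brm libraries, and the groups overlapped. Without wt replicate 1, brm fell below wt at YUC9 by the same test (estimate -0.70 on the log2 scale, adjusted p = 0.0369), as did 1.93% of all genes in that fit. Without wt replicate 2 the estimate was 0.31, so the direction over this span rests on which wt library is used.

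YUC3 (AT1G04610, chr1:1279351-1281618, plus strand) and YUC7 (AT2G33230, chr2:14080319-14081971, minus strand) were the pair without the mark. YUC3 had 20 and 14 H3K27me3 reads over its span in brm, against 55 and 35 in wt, and 115 and 140 reads in the brm and wt inputs. As RPM these were 2.08 and 1.66 in brm, against 6.42 and 3.87 in wt. The brm libraries lay below the wt libraries, but the log2 fold change of -1.45 had an SE of 0.76 and an adjusted p of 0.698. After removal of reads at the same position and strand, 7 and 3 reads remained in brm and 7 and 9 in wt. YUC7 had 24 and 6 reads in brm, against 3 and 35 in wt (log2 fold change -0.38, SE 1.07, adjusted p = 0.970), and its 3′ end overlaps AT2G33220, so reads there cannot be given to either gene.

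Against input, YUC3 had a log2 ratio of -3.42 (adjusted p = 0.00242) in brm and -2.10 (adjusted p = 0.0327) in wt, and YUC7 -3.47 (adjusted p = 0.0151) in brm and -2.72 (adjusted p = 0.0462) in wt. With TMM scaling, which centres the bulk of genes, neither gene passed the test against input (adjusted p between 0.294 and 0.913). Both genes had common regions upstream. A common region lay from -4429 to -630 of the YUC7 start site in both genotypes and covers AT2G33233. Upstream of YUC3, common regions lay from -2550 to -1551 and from -750 to -151 of the start site in brm, and from -2350 to -551 in wt. With a stricter adjusted p of 1e-05 for regions, 0% of the 1 kb upstream of YUC3 was covered in either genotype. That of YUC7 stayed at 37.1% in both. The 3 protein-coding genes with per-kb levels most like those of YUC3 over the 6 libraries were CDC48 (AT3G09840), CUTA (AT2G33740) and CRF12 (AT1G25470), with mean absolute log2 differences of 0.09, 0.10 and 0.10.

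YUC10 (AT1G48910, chr1:18091681-18093878, plus strand), which is expressed mainly in seeds, had 122.5 and 106.4 RPM over its span in brm, against 83.3 and 109.5 in wt. The estimate was the highest of the 10 genes, but the groups overlapped (log2 fold change 0.25, SE 0.18, adjusted p = 0.807). Its common region was chr1:18091201-18093800 in both genotypes, a length of 2600 bp. The 5′ part of the span held 67.6% and 65.4% of its H3K27me3 reads in brm, against 75.2% and 75.6% in wt. The inputs had 51.5% there in brm and 55.3% in wt. YUC9 differed the other way, with 81.6% and 75.8% in brm, against 64.9% and 68.2% in wt. Neither difference was tested.

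The 1 kb upstream was where brm most often lay above wt. Both brm libraries were above both wt libraries for 5 of the 10 genes (YUC3, YUC4, YUC8, YUC9 and YUC10), against 25.7% of all upstream windows tested. None of the 10 passed the test over 24227 windows, of which 0.0124% were called higher and 0% lower in brm. The median log2 fold change of all these windows was 0.12, and of the 10 YUC genes 0.13, so a difference is best read against that of the other windows.

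YUC9 had the largest upstream estimate in the fit to all reads and libraries, although YUC8 was higher with distinct reads, without the read shift and without wt replicate 1. Its 1 kb upstream had 13.0 and 20.8 RPM in brm, against 4.67 and 7.95 in wt, and inputs of 5.81 in brm and 10.09 in wt. Both brm values were above both wt values and both inputs, and the wt values were below the wt input. The log2 fold change was 1.42 (SE 0.45), which is 1.30 above the median of all upstream windows, with an unadjusted p of 0.00699 and an adjusted p of 0.379. With 1 read kept per position and strand, 40 and 57 reads remained in brm, against 17 and 17 in wt, and the YUC9 window passed the test (log2 fold change 1.11, adjusted p = 0.0189), as did 4.32% of the windows tested in that setting in the same direction. It also passed with the input as offset (log2 fold change 2.17, adjusted p = 0.0231), where 3.15% of all windows were called higher, and without wt replicate 2 (1.85, adjusted p = 0.0322), where 0.745% were.

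YUC8 had 5.94 and 12.1 RPM over its 1 kb upstream in brm, against 3.85 and 4.20 in wt, with inputs of 7.40 in brm and 7.41 in wt. The brm libraries again lay above the wt libraries, but 1 of them was below its input. The log2 fold change was 1.16 (SE 0.57, adjusted p = 0.581), and it was 0.56 without brm replicate 2, which had the higher value. In the 200 bp window that begins at -400 from the start site, brm had 8.34 and 35.7 RPM per kb, against 9.34 and 4.42 in wt.

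**Figure D2:**
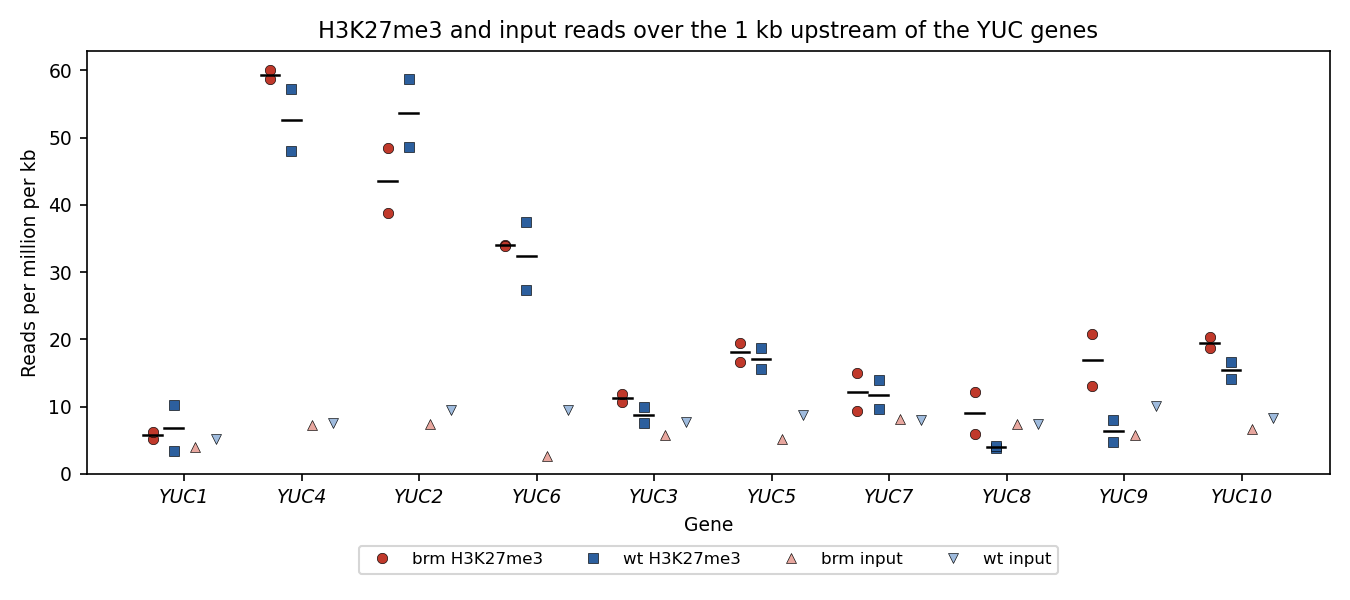
RPM per kb over the 1 kb upstream of each YUC gene, with brm H3K27me3, wt H3K27me3, brm input and wt input from left to right (points are single libraries, bars are means of 2). YUC9 shows brm at 13.0 and 20.8, against 4.67 and 7.95 in wt, while YUC2 and YUC4 have the highest upstream levels in both genotypes.

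The common regions also differed upstream of YUC9 and YUC8. In brm 1 region, chr1:1101401-1105800, ran from -3092 to 1307 of the YUC9 start site. In wt the region was split into chr1:1101401-1103200 and chr1:1104601-1106000, with no common region over the 1 kb upstream. At YUC8, brm had 1 region over the gene and its upstream side, chr4:14183601-14194000 (10400 bp), where wt had chr4:14184001-14191200 and chr4:14192601-14195400. On the 3′ side of YUC8 the regions differed the other way: wt had 1 region from 32 to 2831 of the start site, where brm ended at 1431 and had a separate region from 2232 to 2631. The YUC8 span was covered to 82.6% in brm and 98.2% in wt. Before the start site, 100% of the 1 kb of both genes lay in common regions in brm, against 0% in wt, while the other 8 genes had the same coverage in both genotypes apart from YUC3 (60.0% in brm and 45.0% in wt). The brm coverage was 40.0% for YUC8 and 69.2% for YUC9 when windows were joined over 200 bp in place of 600 bp, and wt stayed at 0%. In that setting other genes differed too: YUC3 had 60.0% in brm and 0% in wt, YUC5 100% in brm and 60.0% in wt, and YUC6 100% in brm and 63.2% in wt.

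Joining of this kind was not particular to YUC genes. Of all brm common regions, 8.86% touched 2 or more wt regions, and of all wt common regions, 1.58% touched 2 or more brm regions. The regions are built on distinct reads, of which the brm libraries had 2719420 and 3213347 and the wt libraries 2385590 and 2115598, and the part of this gap in the joined regions was not tested. Over the joined stretch as a whole no difference was called. The region that holds YUC9 had 116.2 and 132.6 RPM in brm, against 88.7 and 144.3 in wt (log2 fold change 0.09, SE 0.18, adjusted p = 0.840). The region that holds YUC8 had 395.5 and 406.1 in brm, against 445.4 and 414.4 in wt (log2 fold change -0.10, SE 0.09, adjusted p = 0.587). None of the 8 regions over YUC genes passed the test, against 1.95% of 6498 regions that were higher and 1.18% that were lower in brm.

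**Figure D3:**
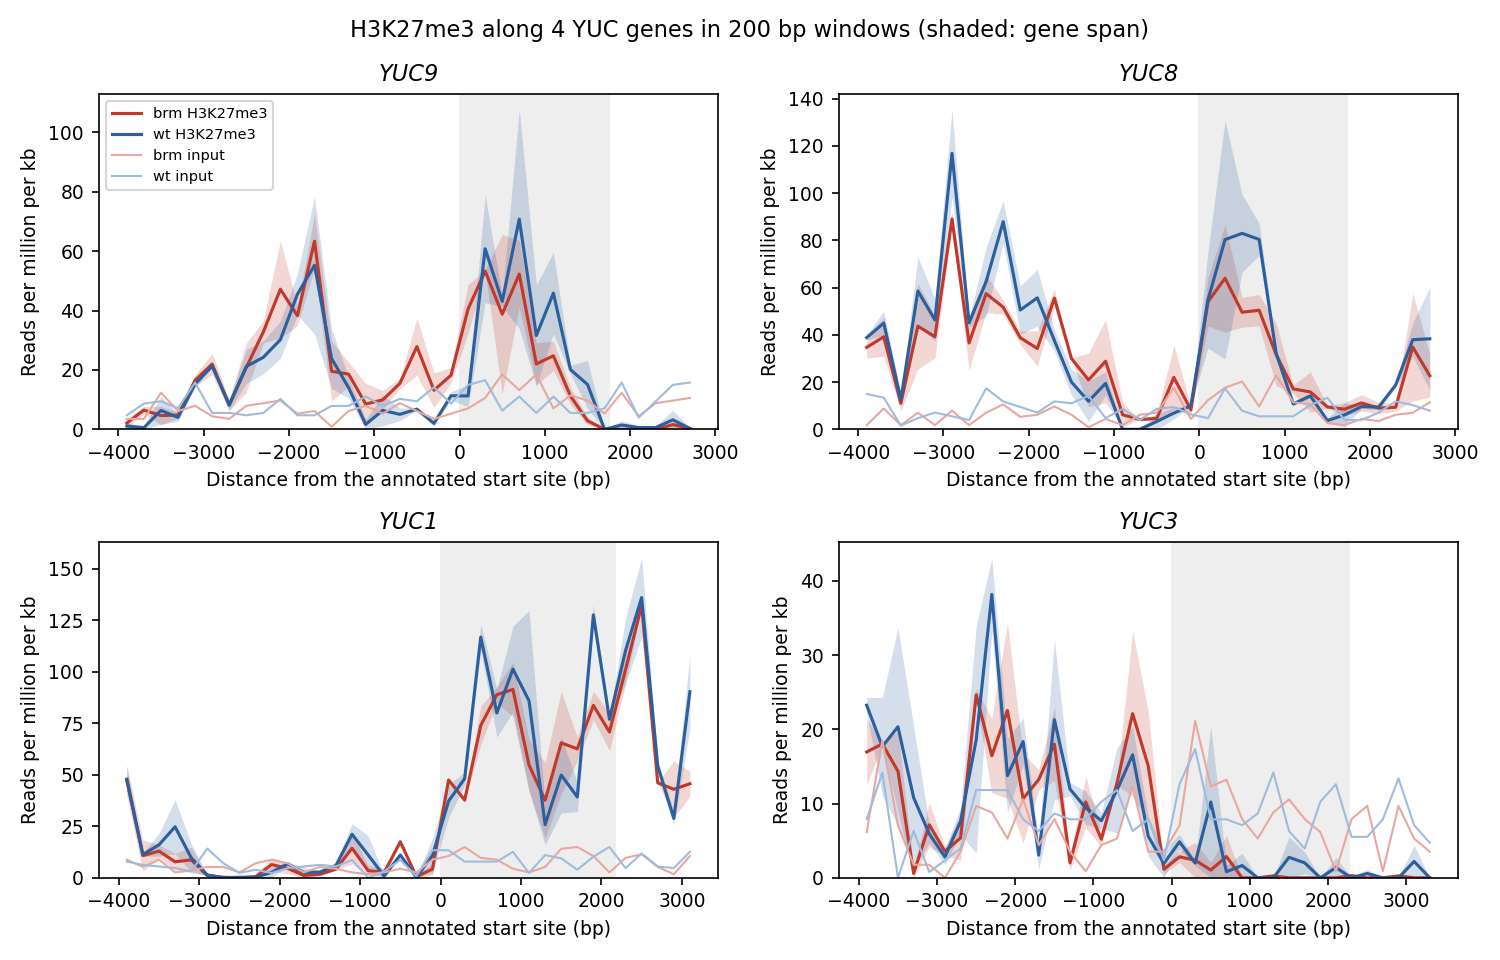
H3K27me3 and input RPM per kb in 200 bp windows by distance from the start site of YUC9, YUC8, YUC1 and YUC3. Lines are means of the brm or wt libraries, colored bands span the 2 H3K27me3 libraries and the grey area is the gene. The brm line stays above the wt line just upstream of YUC9, the mark begins at the start site of YUC1, and YUC3 lies below the inputs over most of its span in both genotypes.

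The 1 kb downstream gave no call for the 8 YUC genes with enough reads, and none of the 24154 windows tested were called, with 0% higher and 0% lower. YUC3 and YUC9 were left out by the filter on low counts, with at most 8 and 20 reads per H3K27me3 library. YUC5 had 8.24 and 9.87 RPM downstream in brm, against 15.4 and 17.3 in wt. The groups did not overlap, and the log2 fold change was -0.86 (SE 0.38, unadjusted p = 0.0421, adjusted p = 0.616). With the input as offset YUC4 passed the test (log2 fold change 1.60, adjusted p = 0.0493), as did 1.16% of all windows in the same direction. In that YUC4 window the brm input had 15 reads and the wt input 49. Without the offset its log2 fold change was 0.17 (SE 0.35, adjusted p = 0.973). The largest estimate, for YUC6, rested on 9 and 1 reads in brm, against 12 and 34 in wt (log2 fold change -2.24, SE 1.25, adjusted p = 0.719).

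**Figure D4:**
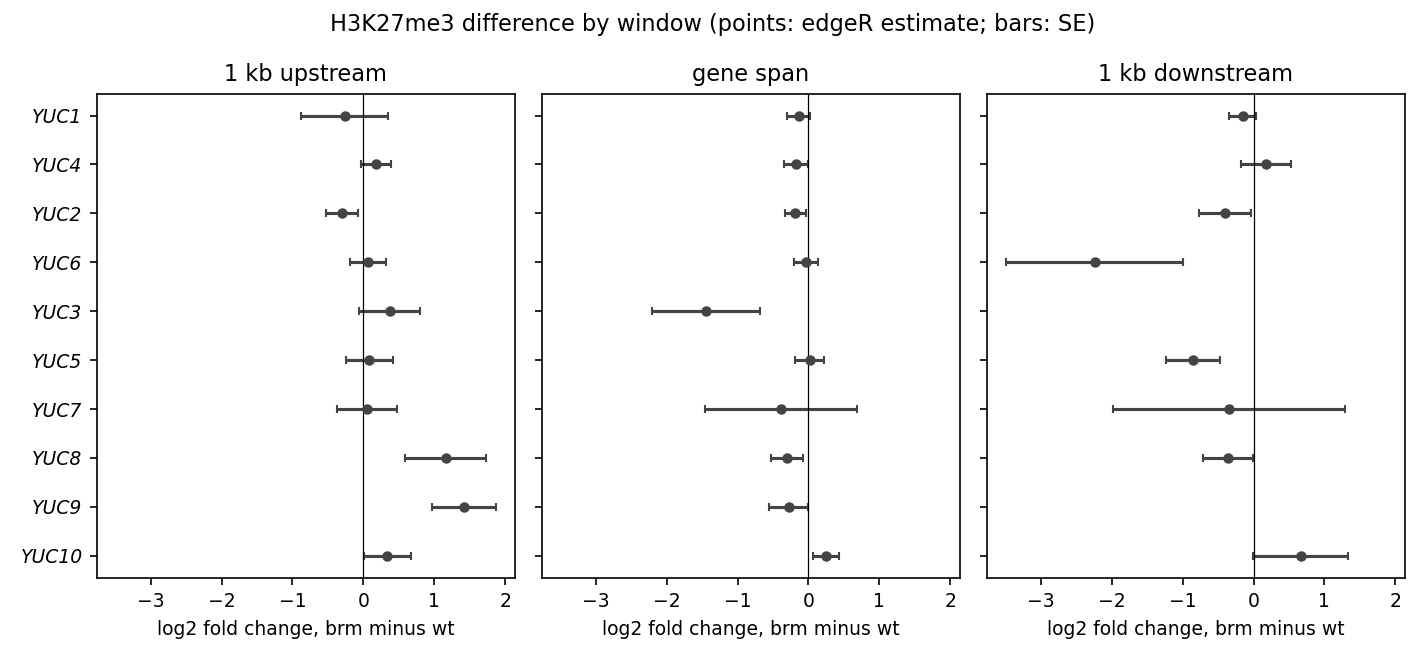
Log2 fold change of H3K27me3 (brm minus wt) for each YUC gene in the 1 kb upstream, the gene span and the 1 kb downstream, as estimated by edgeR, with bars of 1 SE. Apart from YUC3, the estimates over the spans lie between -0.38 (YUC7, with an SE of 1.07) and 0.25 (YUC10). YUC9 and YUC8 have the highest upstream estimates (1.42 and 1.16), and YUC3 and YUC9 have no downstream estimate.

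Other genes of auxin synthesis and conversion were counted in the same way, and 0 of 34 passed the test over their spans, and the median of their estimates was -0.06 on the log2 scale. Of these, 11 were marked in brm and 12 in wt. The step before the YUC enzymes is the conversion of tryptophan to indole-3-pyruvate, and 2 of its 5 genes, TAA1 and TAR1, were marked in both genotypes. YUC11, the family member outside the chosen loci, was marked in neither, with 44.7% of its span covered in brm and 29.8% in wt. None of the 9 genes of tryptophan synthesis were marked, and 5 of the 10 genes that conjugate or oxidise auxin were marked in both genotypes. The indole-3-acetaldoxime and nitrile route had 4 of 9 genes marked in brm and 5 in wt. The 1 gene apart was NIT3, a nitrilase, with 0% of its span in common regions in brm and 70.5% in wt. NIT3 had 16.3 and 23.5 RPM in brm, against 31.5 and 44.4 in wt (log2 fold change -0.93, SE 0.30, adjusted p = 0.425). The NIT3 inputs were 27.0 in brm and 22.4 in wt, so its brm values lay below input and its wt values above. The other extreme estimates, 2.10 for PAT1, 1.12 for TSB1 and -0.86 for ASB1, all genes of tryptophan synthesis, came from genes whose H3K27me3 RPM lay below their inputs.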

How the data were processed

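The deposited files list 37 bp reads as BED lines, which the authors mapped to TAIR10 with Bowtie 0.12.7 (the submitters' notes also name SICER 1.1). Counts were made from the deposited read positions, and the score column, deposited as a constant 0, was not used. Python 3.11.15 with numpy 2.4.6 and pandas 2.3.3 assigned each read by its 5′ end, shifted by 75 bp, with duplicates kept, and divided by all nuclear reads. Genes and sequences are from TAIR10.1. Tests used edgeR 4.0.16 (R 4.3.3, limma 3.58.1): filterByExpr, total reads as library size, robust quasi-likelihood F tests with Benjamini-Hochberg adjustment over all genes, windows or regions, threshold 0.05, on the 4 H3K27me3 libraries. Fits against input used all 6 libraries, and since each input is 1 library its spread is taken from the others. The SE is the log2 fold change divided by the root of F. Regions were rebuilt after SICER for each library: 1 read per position and strand, 200 bp windows with Poisson p under 0.2, joined over up to 600 bp, adjusted p under 0.01 against the input of the genotype. Common regions are bases found in both replicates.

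All 10 YUC genes are named. Of 34 other auxin genes, those past the threshold, or else the 2 highest and 2 lowest estimates, are named, with 4 control loci and the 3 genes nearest to the member with the largest span difference by log2(RPM per kb + 0.5). TAA1, TAR1 and YUC11 were named after their values were seen. Members, lists and alternatives were chosen with earlier results of these data known. Alternatives were scaling, DESeq2 1.42.0, filters, duplicates, read position, input offset, flanks, a replicate block, single libraries and region settings. Scripts were tested on simulated data. Intervals from counts would cover counting error only, since PCR copies are not independent molecules.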

Additional observations from a re-analysis of the deposited data

How the results depend on the processing

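Over the gene spans, 0 YUC genes were higher in brm under all 13 alternatives (for YUC3 and YUC7 under 12, since the fit to distinct reads left them out), and 0 were lower apart from 1 (YUC9) without wt replicate 1, a range of 0 to 1 over the single-library omissions. The 24 higher and 30 lower genes of the whole genome were 75 and 58 with DESeq2, 79 and 105 with no low-count filter, 110 and 101 with 1 read per position and strand, 195 and 504 with the input offset, 155 and 80 with 1 kb flanks added, and between 8 and 269 higher and between 10 and 628 lower when 1 library was left out (8 and 10 without brm replicate 1, 13 and 15 without brm replicate 2, 269 and 628 without wt replicate 1, 189 and 254 without wt replicate 2), where the lone library is assumed to vary like the other genotype. With the replicate block there were 86 higher and 94 lower genes and no YUC gene among them. Replicate differences correlated between genotypes at r = 0.08 over 8339 marked genes and 2 pairs, so the numbers were not taken to pair the libraries. Upstream, the count of higher YUC genes was 1 with 1 read per position and strand (YUC9), 2 with the input offset (YUC9, and YUC6 at 1.78, where the brm input had 15 reads) and between 0 and 1 when 1 library was left out. Downstream it was 1 with the input offset (YUC4, 1.60, where the brm input also had 15 reads). With at least 80% of the span required, 5 YUC genes were marked in brm and 7 in wt, in place of 8 in each. Those that dropped out were YUC5 (76.4% covered), YUC6 (77.5%) and YUC9 (74.8%) in brm, and YUC6 (77.5%) in wt. Of all genes, 6666 were marked in brm and 6000 in wt in that setting, in place of 8040 and 7520. The YUC counts were thus lower in brm, where those of all genes were higher, and this was not tested. Some estimates changed sign, and not only those near 0. Among them, the main fit had YUC7 at -0.38, YUC8 at -0.30 and YUC9 at -0.28 over the span. It had YUC1 at -0.26 upstream and YUC8 at -0.36 downstream. Over the span, YUC5 was -0.013 with TMM over 10 kb bins, -0.052 with distinct reads, -0.025 without the shift, -0.46 with the input offset and -0.075 with flanks, YUC6 was 0.00094 with TMM over genes and 0.27 with the input offset, and YUC7 was 0.032 with the replicate block. Upstream, with TMM over genes and with DESeq2, YUC5 was -0.065 and -0.069, YUC6 -0.079 and -0.083, and YUC7 -0.10 and -0.10. YUC1 upstream was 0.38 with distinct reads, 0.089 without the shift and 0.061 with the input offset, YUC7 was -0.044 without the shift and YUC2 0.033 with the input offset. Downstream, YUC4 was -0.030 with distinct reads, and YUC1 and YUC8 were 0.24 and 0.050 with the input offset. Leaving out 1 library gave span ranges of -0.20 to 0.27 (YUC5), -0.23 to 0.18 (YUC6), -1.55 to 2.16 (YUC7), -0.61 to 0.095 (YUC8) and -0.70 to 0.31 (YUC9), upstream ranges of -0.85 to 0.75 (YUC1), -0.046 to 0.22 (YUC5), -0.14 to 0.31 (YUC6) and -0.32 to 0.35 (YUC7), and downstream ranges of -6.41 to 0.76 (YUC7) and -0.69 to 0.058 (YUC8). The cause of these changes was not tested. YUC9 and YUC8 upstream stayed above 0 under all 12 alternatives, from 1.04 to 2.17 and from 0.56 to 1.80. The settings for the coverage of their upstream windows were added after the data were seen: it stayed at 100% in brm in either replicate alone and was between 0% and 20.0% in wt. In brm replicate 2 alone, the 1 kb upstream of YUC1 was also covered to 100%, although it held 6.18 RPM, near the brm input of 4.05. The coverage of that YUC1 window was 2.8% in brm replicate 1 alone and in either wt replicate alone. DESeq2 gave no adjusted p for YUC3 and YUC7. Each genotype had 2 libraries, and YUC3 and YUC7 had at most 55 H3K27me3 reads over their spans, so their estimates have SEs of 0.76 and 1.07.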
